A study of Mus musculus with 4 samples.

Results

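Cells with a somitic mesoderm profile were followed in mouse gastruloids at day 6. They are the day 6 cells with 2000 or more UMIs (unique molecular identifiers, 1 per captured transcript) and a mitochondrial share under 20% that held both Tcf15 and Meox1, with at least 3 UMIs of the pair. They also had fewer than 2 UMIs of Tcf21, fewer than 2 of Lhx2, fewer than 3 of T and fewer than 30 Myl7 UMIs per 10000. The rule found 294 members among 5850 day 6 cells that passed the cell limits, of 6628 cells in that library and 31330 in the series. This share was 5.03% (95% Clopper-Pearson interval 4.48 to 5.62). Members were thus chosen by their measured UMIs of Tcf15, Meox1, Tcf21, Lhx2, T and Myl7, and the levels of these genes are given as a description.

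Gastruloids are aggregates of mouse embryonic stem cells that elongate and form derivatives of the 3 germ layers. They were made here from the wild type line Zx1 and sampled at days 4, 5, 6 and 11, with 1 library per day. All aggregates had received a pulse of the Wnt agonist Chiron, and bFGF, VEGF and ascorbic acid were in the medium from day 4 to day 7. The day 6 cells were therefore taken during that treatment, and the day 11 cells after it had ended. Each library pooled at least 8 gastruloids, so the values below have no replicate check, and every interval covers counting error only.

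Somites are blocks of paraxial mesoderm that bud in sequence from the presomitic mesoderm at the tail end of the embryo. A clock of Notch, Wnt and FGF targets sets the rhythm, and Tcf15 and Meox1, a basic helix-loop-helix and a homeodomain factor, mark the newly formed epithelial blocks. Each somite then gives sclerotome (cartilage and tendon) ventrally and dermomyotome (dermis and skeletal muscle) dorsally, and its front and rear parts keep separate identities.

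Members held 1 to 76 Tcf15 UMIs (median 3) and 1 to 52 Meox1 UMIs (median 6), and the sum of the pair ran from 3 to 85 (median 11). Their summed counts gave 134.8 Tcf15 CPM (counts of the gene as a share of all UMIs of the same cells, on the usual CPM scale) and 183.0 Meox1 CPM, against 10.0 and 25.1 CPM in the 5556 other day 6 cells. At the edge of the rule, 21 members had a sum of 3 UMIs and 27 a sum of 4, while 26 cells with 1 UMI of each gene met every other limit and stayed outside. A further 343 cells with 3 or more Meox1 UMIs and no Tcf15 also stayed outside, as did 146 with 3 or more Tcf15 UMIs and no Meox1. The other limits removed fewer cells. 25 cells were lost to Tcf21 alone, of which 13 held exactly 2 Tcf21 UMIs, whereas 25 members held 1 Tcf21 UMI. 6 cells were lost to Lhx2 alone, 19 to T alone and 5 to Myl7 alone. The highest Myl7 value of a member was 24.7 UMIs per 10000, and the lowest among cells lost to Myl7 alone was 35.4.

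**Figure D1:**
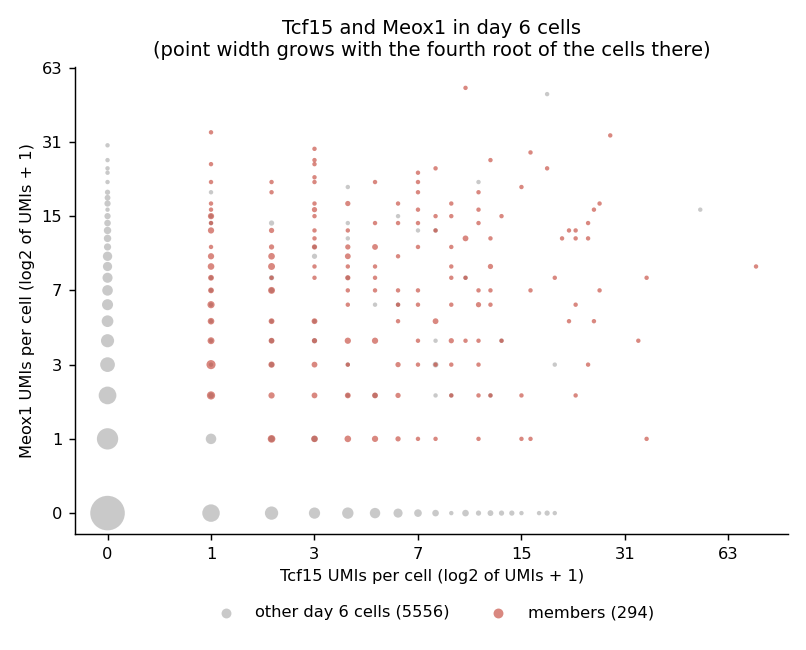
Tcf15 (horizontal axis) and Meox1 (vertical axis) UMIs per day 6 cell, both on a log2(UMIs + 1) scale, with the 294 members in red and the 5556 other cells in grey. Most cells with either gene lie on an axis, where the other gene was not found, and members fill the interior; grey points there are cells removed by the limits on Tcf21, Lhx2, T and Myl7 or by the sum of the pair.

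The rule reads raw counts and takes deep cells more often. Members had a median of 35746 UMIs (6750 to 168786) and 5674 genes, against 24999.5 UMIs and 4936 genes in the other cells, with mitochondrial shares of 2.96% and 2.83%. When the 5850 cells were divided into 4 equal sets by depth, 12 of 1462 cells of the shallowest set were members (0.821%, 0.425 to 1.43), 32 of the next, 111 of the one above it and 139 of 1463 in the deepest (9.50%, 8.05 to 11.1). Shares of positive cells are therefore given also for most of the genes named, at a fixed depth of 5000 UMIs drawn from each cell (thinning). All 294 members reached that depth, as did 5441 of the 5556 other cells, and the shallower cells were left out of the thinned shares. The 2 barcodes that members shared with another library (both with day 5) are among 5 to 19 that the whole day 6 library shared with each other day.

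The rule genes Tcf15 and Meox1 lie at chr2:152143561-152149097 and chr11:101877510-101894374, and the marker Pax3 at chr1:78101267-78197134 (mm10, whole genes). The other markers named with the label, Pax3 and Foxc2, were not used by the rule. The members and gene lists were chosen with earlier results of these data known. The levels of these markers are therefore a description and not an independent check of the label. Pax3, a paired box factor of presomitic mesoderm, dermomyotome and dorsal neural tube, was found in 140 of 294 members (47.6%) and in 9.54% of the other cells. It reached 41.8 CPM (38.4 to 45.5) against 11.3 CPM, a ratio of 3.70 (3.35 to 4.07). Foxc2, a forkhead factor of paraxial mesoderm and vessels, was found in 182 members (61.9%) and in 26.0% of the other cells, at 46.5 CPM (42.8 to 50.4) against 16.4 CPM, a ratio of 2.83 (2.59 to 3.095). At 5000 UMIs per cell, 14.97% of members (11.1 to 19.6) held Pax3 and 21.1% (16.6 to 26.2) held Foxc2, against 3.16% and 7.48% of the other cells. In Myl7 high cells (30 or more Myl7 UMIs per 10000, cardiomyocyte-type cells in which neither gene is a marker; median 24542.5 UMIs), 2.94% held Pax3 and 15.3% held Foxc2 at full depth, and 3.04% held Foxc2 after thinning. Both shares of the members lay above these, but this background holds cardiomyocyte-type cells only. Foxc2 was also common in endothelial-marked cells, and Pax3 was high in a Sox2 high group of cells. Both are described below, so neither marker was particular to members.

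The markers were not held by every member. At full depth 89 members (30.3%) had both Pax3 and Foxc2, 51 only Pax3, 93 only Foxc2 and 61 (20.7%) neither. Both were found in 111 of the 5556 other cells (2.00%, 1.65 to 2.40). Members with both had a median of 41856 UMIs and members with neither 32733, so depth moved with the count of markers; its part in it was not tested.

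Some members carried the markers of another cell type. 23 members (7.82%, 5.02 to 11.5) held 3 or more UMIs of the endothelial genes Cdh5 and Pecam1 with both found, at a median of 66652 UMIs, against 7.69% of the other cells. 21 held the neural pair Sox2 and Sox3 (median 63912 UMIs), 16 the cardiomyocyte pair Tnnt2 and Myl4, and 3 the endoderm pair Epcam and Cldn6. In all 56 members (19.0%) met at least 1 of these limits, and 29 of them were among the 8% of day 6 cells with the highest doublet scores, against 15 of the 238 members without such markers. Over all members 44 (14.97%, 11.1 to 19.6) had a score in that range, against 7.79% of the other cells. Doublets were scored but not removed, because the automatic threshold of the scoring method marked 0 of 5850 cells. Whether these cells are doublets was not tested. Pax3 stood at 42.1 CPM (38.0 to 46.6) in the 238 members and at 41.1 CPM (34.9 to 48.1) in the 56, whereas Uncx was at 64.5 and 25.1 CPM. Tcf15 was at 167.8 and 56.1 CPM, but it is a rule gene with a limit in raw UMIs. The 56 were deeper, at a median of 62643.5 against 34068 UMIs, and deeper cells pass that limit at a lower CPM. The part of depth in the Tcf15 difference was not tested.

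Tcf15 alone did not mark somitic cells in this library. Of the 427 cells outside the members with the endothelial pair (median 37805 UMIs), 48.5% held Tcf15 and 57.6% held Foxc2, at 37.3 and 32.2 CPM. Meox1 was found in 8.43% of them, Pax3 in 5.15% and Uncx in 2.34%. Uncx and Meox2 stood at 1.36 and 0.202 CPM there. Tcf15 and Foxc2 were thus common in endothelial-marked cells, and Meox1, Pax3 and Uncx rare.

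The members were next compared with the other day 6 cells over all 10648 genes found in at least 10% of either set. A gene was counted as higher or lower where CPM plus 10 differed at least 2 times. By that measure 20 genes were higher (0.188% of those tested) and 148 lower (1.39%). The median ratio over all tested genes was 0.976. 2 of the 20 higher genes, Tcf15 and Meox1, were used by the rule. Among the others were Uncx, Fgf18, Hoxc9, Pax3, Meox2, Lef1, Hoxb9, Dll1, Hoxa9, Grrp1, Fst, Foxd1, Hoxc8, Ebf1, Foxc2, Hoxb5os and Dll3. Most are transcription factors, Fgf18, Dll1, Dll3 and Fst encode signals or their inhibitors, and Hoxb5os lies antisense to Hoxb5 and Hoxb6 and spans both, so its reads can only be told from theirs by strand.

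Of the 13 somite and paraxial mesoderm factors listed, 11 were tested, 6 were higher, none was lower and the median ratio was 2.08 on CPM plus 10. Uncx, a homeodomain factor of the rear part of each somite, had the largest ratio after the rule genes on CPM plus 10. On plain CPM it did not, and Dmrt2, Fgf18 and Meox2, among others, lay above it. Members held 0 to 23 Uncx UMIs (median 1) and 154 of 294 had at least 1 (52.4%), against 270 of 5556 other cells. Its level was 52.9 CPM (48.9 to 57.02) against 4.78 CPM, a ratio of 11.1 (9.96 to 12.3). At 5000 UMIs per cell 22.4% of members (17.8 to 27.7) and 1.67% of the other cells were positive, and 0.203% of Myl7 high cells.

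Meox2, the close relative of Meox1, was found in 95 members (32.3%) and 146 other cells (9.52% and 0.754% after thinning), at 17.8 CPM (15.6 to 20.3) against 1.49 CPM, a ratio of 11.98 (9.97 to 14.4). Eya1, a transcriptional cofactor of muscle precursors, stood at 20.96 against 8.35 CPM, a ratio of 2.51 (2.19 to 2.86) that did not reach 2 once 10 was added. Foxc1, the paralog of Foxc2, was at 54.8 against 32.2 CPM. Dmrt2, a factor of the somite and dermomyotome, was found in 39 members and 0.558% of the other cells (2.38% and 0.129% after thinning), at 8.90 CPM (7.34 to 10.7) against 0.238 CPM. Fst, which encodes the activin and BMP inhibitor follistatin, stood at 31.7 against 8.98 CPM. Meox2, Uncx and Dmrt2 all differed by more than 4 times on plain CPM.

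The rear marker Uncx and the front marker Tbx18 differed in level, and front or rear identity itself was not tested. Uncx was not restricted to members, as described below for a group of cells with kidney tubule factors. Tbx18, which marks the front part of a somite, was found in 12 members, at 1.497 CPM (0.901 to 2.34), below the 5.93 CPM of the other cells. 4 members held both Uncx and Tbx18, of 154 with Uncx. Tbx18 is also expressed outside somites, and it stood at 17.7 CPM in the 490 Lhx2 positive cells and at 7.83 CPM in the 696 Tcf21 positive cells.

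**Figure D2:**
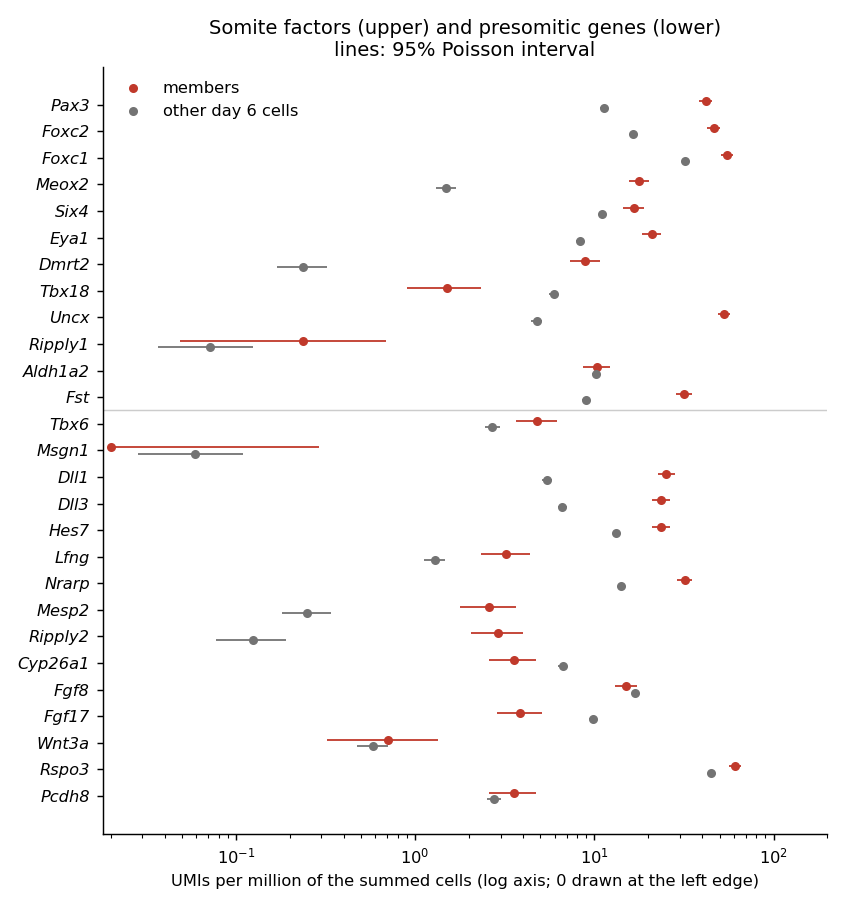
Levels in CPM (log axis) of 12 somite factors (upper block) and 15 presomitic genes (lower block) in members (red) and other day 6 cells (grey), with 95% Poisson intervals; a level of 0 is drawn at the left edge. Uncx, Meox2 and Dmrt2 show the widest gaps in the upper block, and Tbx18 lies on the other side; Msgn1 is at 0 in members.

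Genes of later somite compartments gave a mixed picture. In the sclerotome and tendon list, no gene of the 4 tested was higher or lower, and the sum of the 7 genes was 160.7 against 211.0 CPM. Most of that sum was Twist1, a factor of many mesenchymal tissues, found in 81.3% of members at 102.8 CPM (97.3 to 108.5) against 166.4 CPM. Pax1 had 4 UMIs in all members and Nkx3-2 none (0 of 12692717 UMIs, where 3 UMIs would be 0.236 CPM), while Pax9 stood at 2.84 against 2.64 CPM. Sox9, which is also used in many other tissues, was at 48.4 CPM (44.6 to 52.4) against 36.8 CPM. The 10 genes of the dermomyotome and myotome list had a sum of 24.0 against 9.55 CPM, a ratio of 2.51 (2.21 to 2.84), with 1 gene tested and none higher or lower. The myogenic factors Myod1 and Myog had no UMI in members. Myf5, the earliest of these factors, had 34 UMIs in 19 members, at 2.68 CPM (1.86 to 3.74) against 0.137 CPM, and 16 of the 19 also held Pax3. Lbx1, a factor of migrating muscle precursors, had 56 UMIs in 13 members, of which 11 held Pax3. Pax3 was found in 47.6% of all members, and with 19 and 13 cells these shares are a description.

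In the list of presomitic mesoderm and clock genes, 6 of 15 were tested and Dll1 and Dll3 were higher. Dll1, a Notch ligand, was found in 74 members with up to 14 UMIs (9.18% of members and 1.86% of the other cells after thinning), at 25.2 CPM (22.5 to 28.1) against 5.46 CPM. Dll3 stood at 23.6 (21.04 to 26.5) against 6.63 CPM. When day 6 cells were clustered, both levels rested largely on the 39 members of cluster 12, and in the 171 members of the clusters numbered 1 and 10 Dll1 was at 10.1 and Dll3 at 9.56 CPM. The clock gene Hes7 was at 23.6 against 13.3 CPM and Tbx6, a T-box factor required for paraxial mesoderm, at 4.81 (3.68 to 6.17) against 2.70 CPM. Msgn1, a factor of early presomitic mesoderm, had 0 UMIs in members and 10 in all 5850 cells. Fgf8, which is high at the tail end, was at 15.05 (12.99 to 17.3) against 16.8 CPM.

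Fgf18, which encodes an FGF ligand made by paraxial mesoderm, was found in 63 members with up to 23 UMIs and in 73 of the other cells, at 21.6 CPM (19.1 to 24.3) against 0.903 CPM. At 5000 UMIs per cell 6.46% of members and 0.386% of the other cells held it. Pooled over clusters, 10 of the 19 Fgf18 positive thinned members held Dll1 (52.6%, 28.9 to 75.6). Of the 275 without Fgf18, 6.18% (3.64 to 9.71) held Dll1. Both genes were higher in the members of cluster 12 than in those of clusters 1 and 10. At full depth 28 of the 39 members of cluster 12 held Dll1, 22 held Fgf18 and 17 held both. The pooled contrast thus mixes clusters, and pairing within a cluster was not tested.

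To see where members lay among all day 6 cells, the 5850 cells were clustered into 18 groups with all 364 listed genes left out, and groups were numbered by size. Members were found in 13 groups, and 7 groups held 10 or more. Cluster 1 held 127 members of 608 cells, cluster 10 held 44 of 327, and cluster 12 held 39 of 295. Together these held 210 of the 294 members. Clusters 5, 9, 11 and 14 held 23, 21, 14 and 11. With all 364 listed genes left out, somitic and other, the members did not form 1 group. No cluster consisted mainly of members: the highest share was 20.9% in cluster 1. The genes left out include markers of other lineages, and cells in which only 1 gene of the pair was found are not members. Both points limit what these shares can show.

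Members of clusters 1 and 10 had similar levels of the somitic markers. Uncx was at 69.2 CPM (62.6 to 76.5) in members of cluster 1 and 57.05 (45.4 to 70.7) in those of cluster 10, Pax3 at 42.2 (37.0 to 47.9) and 48.8 (38.1 to 61.6), and Foxc2 at 44.2 (38.9 to 49.99) and 35.1 (26.1 to 46.1), with overlapping intervals in all 3 pairs. Meox1 was lower in cluster 1, at 202.4 (190.9 to 214.5) against 266.7 CPM (240.8 to 294.6). Meox1 is a rule gene with a limit in raw UMIs, so shallower cells need a higher CPM to pass. The members of cluster 10 were shallower, at a median of 30416.5 against 38482 UMIs. The difference is given as a description, and the part of depth in it was not tested. The cells of these clusters that were not members held Meox1 as well, also at a lower level in cluster 1 (57.7 against 75.8 CPM). They held Tcf15 only at 6.77 and 4.96 CPM. In those nonmembers Osr1, a factor of intermediate and lateral mesoderm, was at 73.3 and 69.7 CPM, against 34.3 (29.6 to 39.4) and 52.9 (41.8 to 66.2) in the members. The leading genes of cluster 1 outside the lists (Arg1, 2610528A11Rik, Hist1h2ap, Pclaf and Ccnb1) include 3 genes of DNA replication and division.

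The presomitic genes Hes7, Dll1, Dll3 and Tbx6 were highest in the members of cluster 12 among these 7 clusters. The cluster was led by Hoxaas3, Cdx2, Cdx4, Epha5 and Ifitm1, of which the Cdx genes are factors of the tail bud. Its 39 members held 341.3 Tcf15 CPM (311.8 to 372.9) and 118.6 Foxc2 CPM (101.5 to 137.8), 2.52 and 2.80 times the levels of the 171 members of clusters 1 and 10. Dll1 was at 129.7, Dll3 at 141.5, Hes7 at 167.2, Fgf18 at 117.9 and Lef1 at 228.9 CPM there. In the 171 members of clusters 1 and 10 Dll1 was at 10.1, Dll3 at 9.56, Hes7 at 6.04 and Fgf18 at 11.8 CPM. Across clusters 1, 10, 5, 9, 11 and 14, the members' Hes7 levels lay between 1.02 and 12.7 CPM. By contrast Wt1, a factor of the urogenital ridge and coelomic lining, was at 0.694 CPM in members of cluster 12 and 20.1 CPM in those of clusters 1 and 10, and Osr1 at 10.4 and 38.1 CPM.

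Within cluster 12 the members were set beside the 256 cells that the rule left out. Tbx6 and Hes7 did not differ beyond counting error, with ratios of 1.05 (0.751 to 1.43) and 0.989 (0.861 to 1.13). Fgf8 was lower in members, at 52.7 against 130.2 CPM (ratio 0.405, 0.317 to 0.510), and so were Fgf17 (20.1 against 130.3 CPM) and Cyp26a1, which degrades retinoic acid (6.94 against 46.4 CPM). Wnt3a, a Wnt ligand of the tail bud, had 0 UMIs in the members and 61 in the others, a ratio of at most 0.454 by its interval. T is limited by the rule and is not compared. The same limit keeps cells with 3 or more T UMIs out of the members. The T positive cells of day 6 were high in Fgf8, Fgf17 and Cyp26a1, so the rule favours the lower levels of these genes in members. Higher in members were Dll1 (ratio 4.78, 3.95 to 5.77), Foxc2 (11.2, 8.79 to 14.4), Fgf18 (18.5, 13.9 to 24.9), Lef1 (3.22, 2.82 to 3.67) and Aldh1a2, which makes retinoic acid (2.28, 1.52 to 3.34).

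Genes that place the next somite border were found mostly in the members of this cluster, which held 29 of the 33 Mesp2 UMIs and all 37 Ripply2 UMIs of the 294 members. Mesp2, which fixes that border and the front identity behind it, had 29 UMIs in 7 of the 39 members (20.1 CPM) and 19 UMIs in 8 of the 256 other cells of the cluster (1.81 CPM). Ripply2, the repressor that ends the Mesp2 phase, had 37 UMIs in 5 members and 7 UMIs in 4 other cells, at 25.7 and 0.667 CPM. Single cells reached 17 Mesp2 UMIs and 19 Ripply2 UMIs, and 1 member held both genes. These ratios of 11.1 (6.03 to 20.98) and 38.5 (16.9 to 102.3) rest on 7 and 5 cells, whose spread is wider than the intervals of the summed counts.

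**Figure D3:**
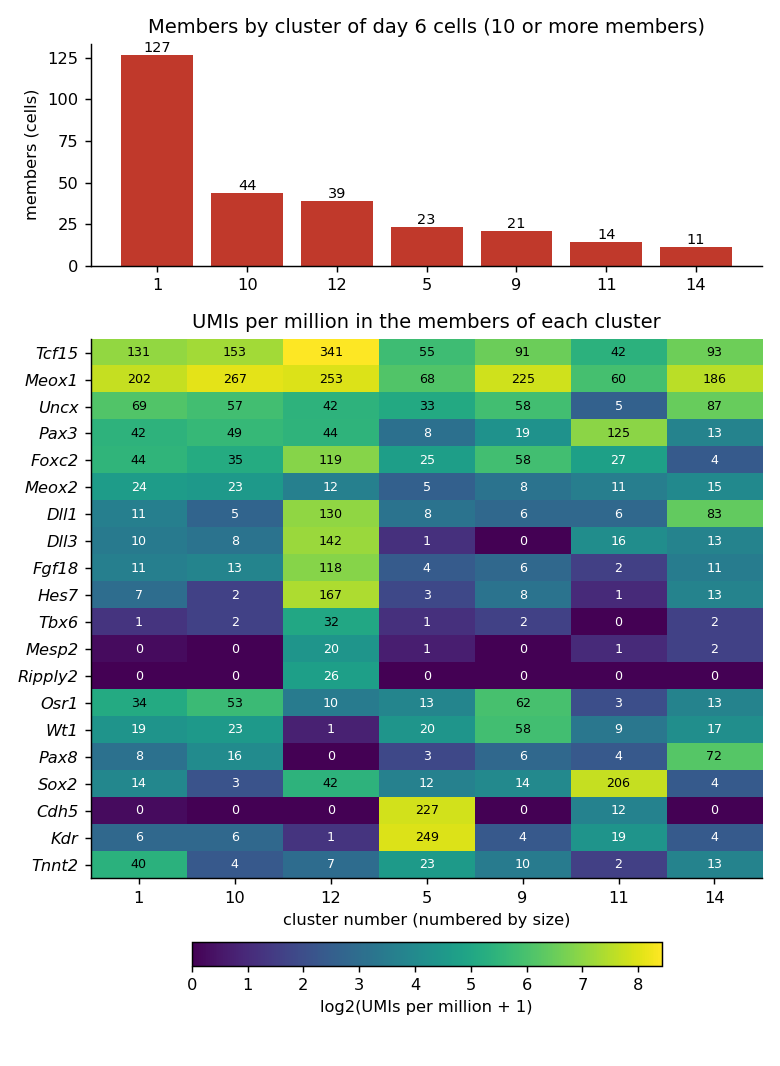
Upper panel: number of members in each cluster of day 6 cells with 10 or more members (bars from 0, cluster numbers on the horizontal axis). Lower panel: CPM of 20 genes in the members of each cluster, printed in each cell and coloured by log2(CPM + 1); cluster 12 stands out for Hes7, Dll1, Dll3, Fgf18, Mesp2 and Ripply2, cluster 5 for Cdh5 and Kdr, cluster 11 for Sox2 and Pax3, and cluster 14 for Pax8.

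The promoters of 4 genes with ratios above 10 between members and other cells are shown here, chosen after their values were seen: the scarce border genes Mesp2 and Ripply2, and Fgf18 and Meox2. Each run is the 250 bases before the RefSeq start site (GRCm38.p6), read 5′ to 3′ on the gene's strand: Mesp2 at chr7:79810477-79810726 on the plus strand, Ripply2 at chr9:87015287-87015536 on the plus strand, Fgf18 at chr11:33147401-33147650 on the minus strand and Meox2 at chr12:37108290-37108539 on the plus strand. Capitals mark the E-box CANNTG, the letters bound by basic helix-loop-helix factors such as Tcf15 and Mesp2, which read the same on both strands.
Mesp2: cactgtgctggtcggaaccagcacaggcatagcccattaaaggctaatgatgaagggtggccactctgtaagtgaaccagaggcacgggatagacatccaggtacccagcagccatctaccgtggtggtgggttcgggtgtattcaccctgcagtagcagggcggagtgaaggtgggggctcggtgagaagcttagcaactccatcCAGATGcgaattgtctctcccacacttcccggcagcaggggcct
Ripply2: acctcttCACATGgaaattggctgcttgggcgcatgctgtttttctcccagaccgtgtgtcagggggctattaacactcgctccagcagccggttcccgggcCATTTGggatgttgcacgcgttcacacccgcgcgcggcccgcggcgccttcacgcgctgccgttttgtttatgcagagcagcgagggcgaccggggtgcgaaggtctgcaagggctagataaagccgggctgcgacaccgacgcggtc
Fgf18: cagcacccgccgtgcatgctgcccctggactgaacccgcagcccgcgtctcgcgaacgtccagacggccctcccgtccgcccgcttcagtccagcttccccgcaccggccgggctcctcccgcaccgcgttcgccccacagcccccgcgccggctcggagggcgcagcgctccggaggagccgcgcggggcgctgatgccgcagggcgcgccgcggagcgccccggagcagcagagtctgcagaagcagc
Meox2: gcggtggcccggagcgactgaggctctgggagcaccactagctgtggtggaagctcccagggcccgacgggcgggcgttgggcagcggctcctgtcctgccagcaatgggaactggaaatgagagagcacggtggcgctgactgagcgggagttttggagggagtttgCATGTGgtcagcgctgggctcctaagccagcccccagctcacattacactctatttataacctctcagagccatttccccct

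Mesp2 and Meox2 hold 1 E-box each, Ripply2 holds 2 and Fgf18 none. Of 32851 RefSeq promoter windows of the same length, 66.2% hold at least 1, so these counts do not set the genes apart. The T-box core AGGTGT, searched on both strands, was in none of the 4 windows and in 11.8% of all.

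Members of the remaining clusters differed from those of clusters 1, 10 and 12. The 23 in cluster 5, led by Ctla2a, Ecscr, Icam2, Flt1 and Igf1, held 226.7 Cdh5 CPM (203.9 to 251.3) and 248.7 Kdr CPM, with Uncx at 33.3 CPM (24.9 to 43.5) and Pax3 at 7.54 CPM. Their median depth was 66652 UMIs, and 15 of the 23 were among the highest doublet scores. In cluster 1 such scores were held by 16 of the 127 members and by 16.4% of all its cells. The 14 in cluster 11, led by Fabp7, Fam181b, Pantr1, Pou3f2 and Fez1, all held Sox2 and Pax3, at 206.2 and 124.5 CPM, but Uncx only at 5.10 CPM (1.66 to 11.9). The 313 other cells of cluster 11 had Pax3 at 90.6 CPM and Sox2 at 300.1 CPM, so Pax3 was not particular to members there. The 21 in cluster 9 held Osr1 at 61.9 CPM (41.8 to 88.4) and Wt1 at 57.8 CPM. The 11 in cluster 14, led by Wfdc2, Pcp4, Rmst, Emid1 and Clec18a, held the kidney tubule factors Pax8 and Pax2 at 72.0 and 42.4 CPM; Uncx was at 86.8 CPM in them and 78.7 CPM in the nonmembers of that cluster.

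Hox genes lie along each chromosome cluster in the order of their domains along the body, and 4 genes of groups 8 and 9 were higher in members. Of 39 listed Hox genes 30 were tested, 4 were higher (Hoxc9, Hoxb9, Hoxa9 and Hoxc8), none was lower and 27 had ratios above 1. Hoxc9 was found in 220 members (74.8%), with 0 to 46 UMIs and a median of 4, and in 1220 of the other cells (22.0%). After thinning the shares were 39.1% and 9.74%. Its level was 113.9 CPM (108.1 to 119.95) against 35.8 CPM, a ratio of 3.19 (3.01 to 3.37). Summed over the paralogs of group 9, members had 366.9 CPM (356.4 to 377.6) against 147.3 CPM, a ratio of 2.49 (2.41 to 2.57).

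The ratio changed along the Hox clusters. The sums of groups 1 to 4 gave 1.21 (1.18 to 1.25), groups 5 to 8 gave 1.85 (1.80 to 1.90), group 10 gave 1.81 (1.71 to 1.91), and groups 11 to 13 gave 0.670 (0.527 to 0.840) on only 79 UMIs in members. Hoxa2 was the single gene of groups 1 to 4 with an interval wholly below 1, at a ratio of 0.655. Hoxd11 was at 3.94 against 5.94 CPM, and Hoxa13, Hoxc12, Hoxc13 and Hoxd12 had 0 UMIs in members.

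**Figure D4:**
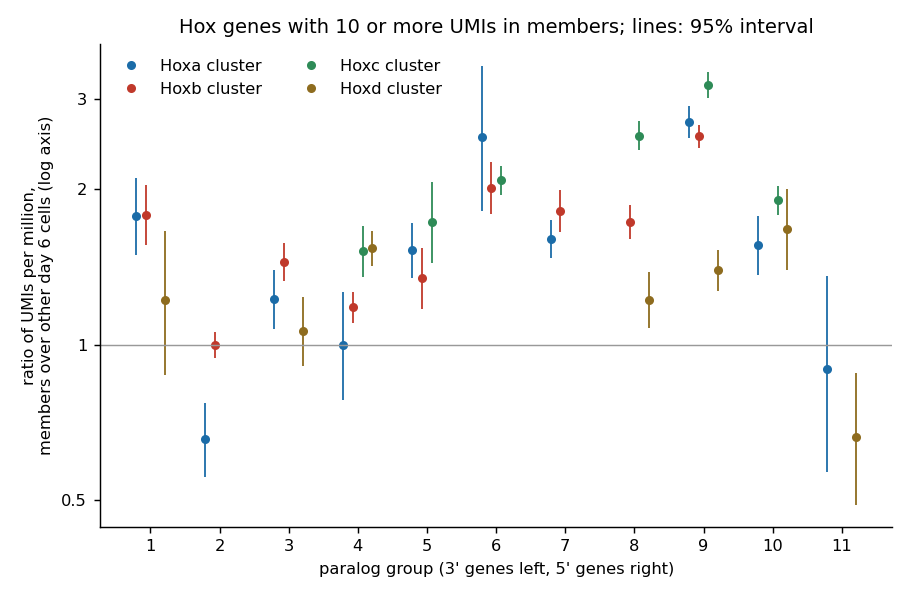
Ratio of CPM in members over other day 6 cells (log axis) for each Hox gene with 10 or more UMIs in members, by paralog group (horizontal axis) and coloured by Hox cluster, with 95% intervals. Ratios are highest at group 9 (Hoxc9, 3.19) and fall to 1 or below at group 11.

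The Hox differences depended on the neighbouring cells. Group 9 sums were 6.00 times (5.60 to 6.42) those of the 490 Lhx2 positive cells and 2.95 times (2.82 to 3.097) those of the 696 Tcf21 positive Lhx2 negative cells. They were 0.840 times (0.801 to 0.881) those of the 114 T positive cells, and group 10 and groups 11 to 13 were 0.304 times (0.284 to 0.325) and 0.107 times (0.0824 to 0.136) those of the T positive cells. Within the members Hoxc10 was at 199.1 CPM in cluster 12 and 72.0 CPM in clusters 1 and 10, a ratio of 2.77 (2.39 to 3.204).

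Of the 148 genes lower in members than in the other day 6 cells, the largest differences were in cardiac muscle genes. The cardiomyocyte list had 8 of 10 genes tested, all 8 lower. The rule limits Myl7 and so favours this direction. Actc1, an actin of heart muscle, was at 33.2 CPM (30.1 to 36.5) against 531.7 CPM, and Tnnt2, a troponin, at 26.9 against 373.6 CPM. The lateral plate list had 8 of 11 lower: Hand1 (13.5 against 89.0 CPM), Hand2 (29.3 against 143.7 CPM), Gata4, Gata5, Gata6 (40.0 against 174.1 CPM), Bmp4, Tbx5 and Tbx20. The rule also keeps out cells with 2 or more UMIs of Lhx2 or Tcf21. Hand1 and Gata6 were at 174.9 and 362.1 CPM in Lhx2 positive cells, and Hand2 at 184.7 CPM in Tcf21 positive Lhx2 negative cells. The rule thus favours this direction for the lateral plate list too. Without the 510 Myl7 high cells in the comparison, 89 genes were lower in place of 148. Prrx2 and Prrx1, homeodomain genes of limb and flank mesenchyme, did not pass the limit, at 136.9 against 162.4 CPM and 20.2 against 45.2 CPM.

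Members also differed in single genes of signalling pathways. In the Wnt list of 19, 15 were tested. Lef1, a nuclear partner of beta-catenin, was higher at 64.2 (59.9 to 68.8) against 21.04 CPM, whereas the inhibitors Dkk1 (6.15 against 29.5 CPM) and Sfrp1 (38.1 against 156.95 CPM) were lower. Axin2, a general Wnt target, was at 8.43 (6.91 to 10.2) against 6.58 CPM. In the BMP list Fst was higher and Bmp4 lower (12.999 against 57.1 CPM), with 14 of 17 tested. The targets Id1, Id2 and Id3 lay close to the other cells, at ratios of 1.11, 0.908 and 1.15.

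In the Notch list Dll1 and Dll3 were higher of 11 tested. The receptor Notch1 stood at 44.9 against 29.6 CPM and the targets Hey1 and Heyl at 60.2 against 33.0 and 5.04 against 1.09 CPM. In the FGF list of 16, Fgf18 was the 1 gene higher of 11 tested. The target Etv4 was at 38.3 against 18.5 CPM, a ratio of 2.07 (1.88 to 2.28), and Dusp6 and Spry1 at 47.5 against 34.9 and 33.3 against 21.6 CPM. None of the 7 hedgehog genes tested differed 2 times: the receptor and target Ptch1 was at 40.7 against 43.4 CPM and Gli1 at 2.28 (1.53 to 3.28) against 2.58 CPM. The ligand Shh had 1 UMI in members.

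No retinoic acid gene of the 8 tested was higher or lower. Aldh1a2 stood at 10.3 (8.63 to 12.3) against 10.2 CPM. In the list of adhesion, Eph and matrix genes, Col1a1 and Col3a1 were the 2 lower of 19 tested, at 7.96 against 26.8 and 22.1 against 63.4 CPM, and none was higher. Pcdh19, a protocadherin, had the highest ratio there, at 13.7 against 3.13 CPM (4.39, 3.67 to 5.22). Fn1, the fibronectin gene, was at 123.3 against 206.8 CPM.

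Against the other day 6 cells, most cell cycle genes had ratios slightly above 1, where 4495 of all 10648 tested genes did. Of 42 S phase genes all were tested and 41 had a ratio above 1, with a median of 1.28 on CPM plus 10, and their sum was 1.33 times (1.32 to 1.35) that of the other cells. Of 51 G2 and M phase genes 45 had ratios above 1, with a median of 1.10. None of the 93 reached 2 times. Members were deeper than the other cells, and the part of depth in these ratios was not tested. The ratios also depended on the comparison. The S phase median was 1.42 against Lhx2 positive cells, 1.18 against Tcf21 positive Lhx2 negative cells and 0.941 against T positive cells. The G2 and M phase medians were 1.11, 0.936 and 0.972 in the same order.

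The members were then set beside 3 neighbouring groups of day 6 cells, all under the same Myl7 limit. Against the 490 Lhx2 positive cells, 10843 genes were tested, of which 73 were higher (0.673%) and 250 lower (2.31%) in members. After the rule genes, Hoxc9, Hoxb5os, Hoxb9, Hoxa9, Uncx, Hoxc8, Hoxc6 and Pax3 led, with Pax3 at 41.8 against 3.06 CPM. The lower genes were led, after Lhx2, by Sfrp5, Mab21l2, Alcam, Hand1 and Gata6, which are genes of lateral and cardiac mesoderm, with Gata6 at 40.0 against 362.1 CPM.

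Against the 696 Tcf21 positive Lhx2 negative cells, 30 of 10695 genes were higher (0.281%) and 125 lower (1.17%). Uncx was 11.9 times as high (9.66 to 14.8), Fgf18 45.1 times (24.8 to 91.4) on 11 UMIs in those cells, and Foxc2 2.73 times (2.40 to 3.11). Tcf21, Rgs5, Hand1, Hand2os1, Hand2, Capn6 and Tnni1 were the lowest, with the mural cell gene Rgs5 at 15.5 against 141.7 CPM. 5 of the 6 presomitic genes tested were higher there, and 4 of the 6 against the Lhx2 positive cells.

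Against the 114 T positive cells, whose median depth was 46624 UMIs, 40 of 11132 genes were higher (0.359%) and 95 lower (0.853%). Here the presomitic list ran the other way, with 7 of 11 tested genes lower and none higher. Fgf17, Fgf8, Cdx2, Apela, Hoxaas3, Epcam, Rspo3, Hes7 and Cyp26a1 were lowest besides T, with Fgf8 at 15.05 against 243.8 CPM and Tbx6 at 4.81 against 41.3 CPM. Higher were Meox1, Uncx (8.33 times, 6.03 to 11.8), Prrx2, Ebf1, Hopx, Tcf15, Nr2f2, Foxc2 (5.29 times, 4.00 to 7.13), Plvap and Mest. Pax3 was 2.01 times (1.65 to 2.46) and Meox2 6.44 times (3.93 to 11.2) as high as in the T positive cells, whereas Lef1 was 0.848 times (0.756 to 0.953).

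Members positive and negative for Pax3 at 5000 UMIs (44 and 250 cells) were compared by the share of cells with each gene. The leading genes were Tasp1 (20.5% against 2.40%), Fbxo33, Plch1, D130020L05Rik and Fpgs, and the lowest were Des (0% against 17.6%), Gtf2a1 and Mxd4; no gene of the somite lists was among the 15. Members with Foxc2 (62) and without it (232) were led by Fgf18, at 19.4% against 3.02%, followed by Ska3, Unk and Ncoa5. Pax3 and Foxc2 were found together in 10 thinned members, and Foxc2 was in 22.7% (11.5 to 37.8) of Pax3 positive and 20.8% (15.9 to 26.4) of Pax3 negative members. With these cell numbers a difference of a few cells moves a gene into these lists.

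At the other days the same rule found 8 of 7202 cells at day 4, 1 of 7408 at day 5 and 110 of 8730 at day 11 (1.26%, 1.04 to 1.52). The pair with 3 or more UMIs, without the other limits, was found in 11, 1, 357 and 120 cells at days 4, 5, 6 and 11. Over all cells that passed the cell limits, Tcf15 stood at 8.68, 2.95, 18.8 and 23.8 CPM on these days and Meox1 at 0.770, 0.618, 36.2 and 6.06 CPM. Uncx was at 0.0088, 0.123, 8.16 and 9.85 CPM, and Msgn1, with 136 UMIs at day 4, had none at day 5. Meox1 and Foxc2 were thus highest at day 6 among the 4 libraries, while Tcf15, Pax3 and Uncx were highest at day 11, where cells were shallower (median 12082 against 25581 UMIs).

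The 110 cells of day 11 were another mixture. 45 of them (40.9%) held the endothelial pair and 20 (18.2%) held 3 or more UMIs of Myod1, Myog and Myf5, whereas 23 and 3 of the 294 day 6 members did. Cdh5 stood at 162.1 CPM and Myog at 141.0 CPM in them, against 29.5 and 0 CPM in the day 6 members. The ratios of Pax3 and Uncx to the other day 11 cells were 0.896 (0.726 to 1.09) and 0.774 (0.513 to 1.12), with 1 inside both intervals, and Fgf18 was at 1.10 against 21.6 CPM at day 6. In the 45 cells with neither set of markers Pax3 was at 77.1, Uncx at 27.9 and Meox1 at 145.0 CPM, and Scx, a tendon factor, at 115.7 CPM. The day 11 cells were older, were grown without the added factors after day 7 and came from another library with no replicate. The header of the day 11 matrix also names another Cell Ranger version. Age, medium, library and software version therefore cannot be told apart.

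**Figure D5:**
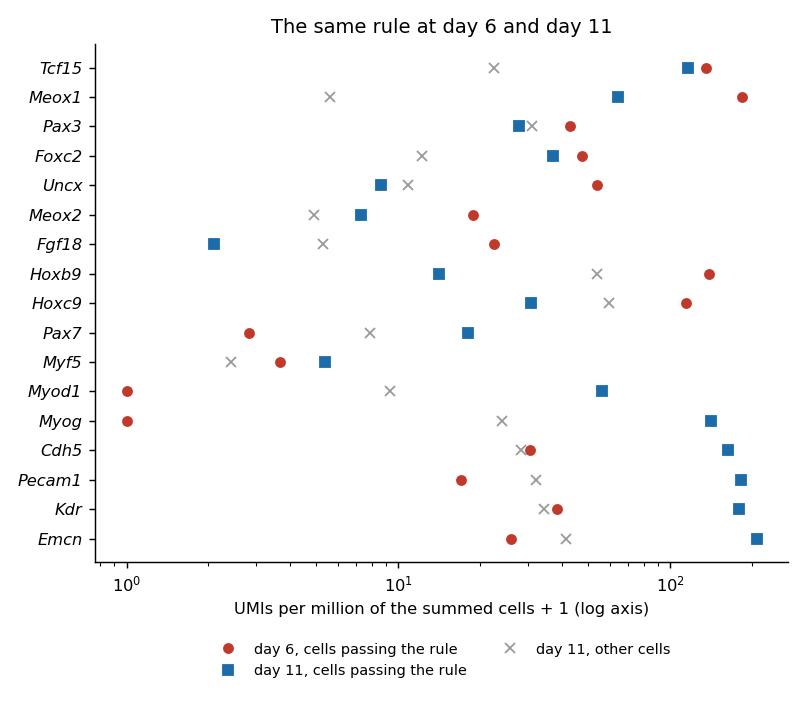
CPM plus 1 (log axis) of 17 genes in the cells that passed the rule at day 6 (red circles) and day 11 (blue squares) and in the other day 11 cells (grey crosses). Uncx, Fgf18 and the Hox genes lie lower at day 11, while Myod1, Myog and the 4 endothelial genes at the bottom lie higher.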

How the data were processed

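Single-cell libraries were made by the authors with the 10x Genomics 3′ chemistry. The deposited matrices hold UMI counts per gene and cell, not normalized; per the labels they were made with Cell Ranger 3.1.0 on mm10, while the day 11 header names version 6.0.1. Day 6 held 182150138 UMIs. The members and gene lists were chosen with earlier results of these data known.

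Counts were summed over cells and divided by summed UMIs (CPM). With 1 library per group no test was possible. Intervals are at 95%: exact Clopper-Pearson for shares, Poisson for CPM and conditional binomial for ratios. Across genes, ratios were taken on CPM + 10 over genes found in at least 10% of cells of either set. Named genes were those of 25 lists, the 25 highest and 15 lowest ratios, the 10 and 10 in each other comparison and the 10 and 5 of each split. Cells were thinned to 5000 UMIs (seed 1). Clustering (scanpy 1.11.5) used 2000 variable genes, 30 components, 20 neighbours and Leiden resolution 1, without the 364 listed genes; doublets were scored with Scrublet. The ratio step was checked on simulated data. Promoters came from RefSeq (GRCm38.p6) and gene coordinates from GENCODE on the same build. Alternatives were other cell limits, rule limits, added constants and thinning depths. Some listed genes are not reported here.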

Additional observations from a re-analysis of the deposited data

How the results depend on the processing

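No paired analysis was possible because each day has 1 library. The share of members, 5.03%, moved to 4.21% with a sum of 5 or more UMIs of Tcf15 and Meox1, to 2.16% with the rule on counts thinned to 10000 UMIs, and, in alternatives chosen after the data were seen, to 4.11% without members with markers of another type and 3.64% with only the members of clusters 1, 10 and 12. The 20 higher genes became 62 with 1 added to CPM, 2 with 50 added and 32 under the thinned rule. The 148 lower genes became 402, 28 and 264 under these, 89 without Myl7 high cells, 263 without members with markers of another type and 255 with the members of the 3 clusters. The Pax3 ratio of 3.70 became 4.23 without the highest doublet scores and 4.23 as the mean of each cell's CPM. The Foxc2 ratio of 2.83 became 3.097 and 3.1001 under these, 3.44 under the thinned rule, 3.32 without members with markers of another type and 3.36 with the 3 clusters. The share of members with Pax3, 14.97% at 5000 UMIs, became 24.9% at 10000 UMIs and 4.08% with 2 UMIs for a positive cell. The cause of these changes was not tested, apart from the added constant and the number of UMIs kept, which act by construction. The other settings tried moved no share or ratio beyond its interval and no gene count by over 1.5 times. None turned the Pax3 or Foxc2 ratio below 1. Depth limits genes of few UMIs: in the members, 3 UMIs are 0.236 CPM.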
